A study of Mus musculus with 15 samples.

Results

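The respiratory chain genes described here were the nuclear genes of mouse skeletal muscle named for subunits of complexes I to V. They were chosen by name alone: the Nduf gene series with letters a, b, c, s and v, the 4 Sdh genes, and names beginning with Uqcr, with Cox followed by 4 to 8, or with Atp5. Of 92 matching names, 7 marked as pseudogenes by -ps and 3 with a mean under 10 normalized counts over the 15 samples were left out. This left 82 genes of 55536 in the tables, of which 15389 had a mean of 10 or more. Complex I had 36 of them, complex II 4, complex III 8, complex IV 17 and complex V 17. The names are not a perfect guide to the complexes. Ndufa4, now regarded as a complex IV subunit, was counted in complex I, Cox7a2l is a factor of respiratory supercomplexes, Atp5s is coupling factor B, Cox6c2 is annotated as a processed pseudogene, and the subunit genes Cyc1 and Ndufab1 fell outside the patterns.

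Poly(A) RNA of skeletal muscle was sequenced from 15 mice labelled male and 2 months old: 5 wild-type controls, 5 with the genotype Pdgfrb knockout and 5 with the genotype Pdgfrb D489V. The description of the series places both changes in cells that express myogenin, and calls the second one constitutively active. The driver allele, the strain and the muscle are not given in the sources used here, and nothing states whether the samples of a group came from separate litters or days, so p-values measure the spread between these samples only. Pdgfrb encodes a receptor for platelet-derived growth factor that is known mainly from pericytes, smooth muscle cells and fibroblasts. The comparisons ask how the RNA of muscle differs between the genotypes.

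The respiratory chain sits in the inner mitochondrial membrane. Complex I takes electrons from NADH and complex II from succinate, both pass them to ubiquinone, complex III moves them to cytochrome c, and complex IV hands them to oxygen. Complexes I, III and IV pump protons, and complex V, the ATP synthase, uses the proton gradient to make ATP. All but complex II also hold subunits encoded by the mitochondrial genome. Several complex IV subunits exist as a general isoform and a heart and skeletal muscle isoform from separate genes, such as Cox6a1 and Cox6a2, or Cox8a and Cox8b.

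The 250 bases before the RefSeq start of 3 complex IV genes are shown, since Cox6a1 and Cox8a were the 2 members that passed the test over all genes as lower in knockout than in D489V muscle, and Cox8b is the muscle partner of Cox8a. Positions are on GRCm38.p6, minus strand: chr5:115348959-115349208 for Cox6a1, chr19:7217617-7217866 for Cox8a and chr7:140900447-140900696 for Cox8b. Capitals mark matches, on either strand, to CGCATGCG (NRF1), CCGGAAG (the core bound by ETS factors), AAGGTCA (ERR) or CAGCTG (an E-box).
Cox6a1: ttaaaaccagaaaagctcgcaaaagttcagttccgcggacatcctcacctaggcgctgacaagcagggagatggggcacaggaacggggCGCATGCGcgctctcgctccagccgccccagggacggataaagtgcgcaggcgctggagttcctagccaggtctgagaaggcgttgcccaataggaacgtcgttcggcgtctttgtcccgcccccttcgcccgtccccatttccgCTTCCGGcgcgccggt
Cox8a: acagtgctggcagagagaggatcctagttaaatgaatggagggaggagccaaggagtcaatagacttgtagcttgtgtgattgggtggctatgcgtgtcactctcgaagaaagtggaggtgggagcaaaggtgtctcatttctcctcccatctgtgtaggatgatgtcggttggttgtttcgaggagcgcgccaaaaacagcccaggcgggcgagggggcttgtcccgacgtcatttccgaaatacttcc
Cox8b: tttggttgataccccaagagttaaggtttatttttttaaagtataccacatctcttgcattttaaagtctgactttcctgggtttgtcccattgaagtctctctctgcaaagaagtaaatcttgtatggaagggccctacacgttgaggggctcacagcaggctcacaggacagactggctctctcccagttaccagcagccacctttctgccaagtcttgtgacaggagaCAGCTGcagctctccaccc

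Cox6a1 held the NRF1 letters, beginning 161 bases before the start, and the ETS letters read on the other strand, beginning 16 bases before it, with no overlap between the matches. Cox8b held the E-box letters, beginning 19 bases before its start, and Cox8a held none of the 4 motifs. RefSeq promoters matched 65 of the 82 members by symbol. Ndufs1 and Atp5a1, the members called higher in knockout than in D489V, and Cox6a2 had no match, and their promoters are not shown. NRF1 letters were in 6 of the 65 (9.2%) and in 1.5% of all 32851 promoters, and ETS letters in 11 (16.9%) against 6.9% of all. ERR letters were in 5 (7.7%) against 4.1%, and the E-box in 6 (9.2%) against 13.0%. The matches are letters in a window, described without a test.

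Normalized counts summed to between 29815559 and 36489777 per sample, and pairs of samples had Spearman correlations of 0.951 to 0.993. The targeted gene, Pdgfrb, was at 1848, 1673, 1720, 1716 and 1811 in controls 1 to 5, at 1475, 1628, 1138, 1339 and 958 in knockout and at 820, 828, 1062, 849 and 970 in D489V. All mutant samples lay below all controls. The log2 change was -0.45 (SE 0.13, limma adjusted p 0.294) in knockout and -0.96 (SE 0.0897, limma adjusted p 0.00168) in D489V. Sample knockout 3, labelled male, held 3165 counts of Xist, the RNA of the inactive X chromosome, against at most 101 in the others. None of the 10 skeletal muscle markers, such as Acta1 and Ckm, was listed at 0 in all samples or called in any comparison, and their sums were 2136004 to 3227500.

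The most abundant members per kilobase of exon in controls were subunits of the catalytic head of the ATP synthase and of complex IV. Atp5b, the beta subunit of complex V, stood at 19605 ± 4922 normalized counts per kilobase (SD, n = 5) and Atp5a1, the alpha subunit, at 17451 ± 5593. Cox6a2, the muscle form of subunit 6a, followed at 16537 ± 2622 and Cox4i1, the main isoform of subunit 4, at 16425 ± 884. These 4 overlapped along the order, and all controls of Cox4i1, at 15145 to 17613, lay above all controls of the next gene, Cox6b1, at 10630 to 13867. Of the 81 neighbouring pairs in the order, 79 overlapped in their control ranges. The other break came near the low end, between Atp5o at 533 ± 68 and Atp5s at 169 ± 21. Below it stood Cox4i2 (141 ± 46), Cox6c2 (45 ± 31), Cox6b2 (33 ± 7), the isoform of Cox6b1 known from testis, and Ndufb2 (23 ± 7). Ndufb2 is a subunit of complex I, and its level was far under the complex I median of 2930 per kilobase. Medians were 4662 for complex II, 6359 for complex III, 4357 for complex IV and 3497 for complex V. Before division by length, Ndufb2 was also the lowest of complex I in controls, at 127.8 normalized counts. The next was Ndufb4 at 1166. Ndufb2 had 5628 bases of merged exons, and levels per kilobase fall with annotated exon that the muscle transcript does not use, which was not examined.

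Neither mutant group differed from the controls in any of these genes by the test over all genes. In knockout against control, 0 of the 81 tested members passed a limma adjusted p of 0.05, and 0.00656% of the 15234 genes tested did, all lower. At an unadjusted p under 0.05 there were 4 members (4.94%), 3 higher and 1 lower, against 15.1% of all genes. In D489V against control, 0 of 82 members passed, beside 0.0587% of 15339 genes (0.0261% higher and 0.0326% lower), and 3 (3.66%) had an unadjusted p under 0.05, against 9.43% of all genes. No member had groups that did not overlap in either comparison, beside 2.24% and 2.16% of all genes. In bulk tissue, fewer fibres or mitochondria-rich cells and less RNA per cell cannot be told apart.

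The sizes of these differences were small for most subunits. In knockout against control, 68 of 81 members (84.0%) differed by less than 0.25 on the log2 scale, as did 60.1% of all genes, with a median standard error of 0.138 per member. In D489V against control, 76 of 82 (92.7%) did, as did 71.0% of all genes, with a median standard error of 0.115. The median member difference was 0.016 in knockout and 0.08 in D489V, beside 0.011 and 0.002 over all genes. Both comparisons used the same controls. The member median in D489V rested on the scale: it was -0.01, with 37 members above 0 in place of 61, once trends with gene length and GC content were taken out of the values. Over all genes 50.4% lay above 0 there. In knockout, 46 of 81 members lay above 0, beside 51.5% of all genes, and 19 did after quantile normalization. Leaving out single samples gave 32 (without knockout 1) to 64 (without control 1).

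**Figure D1:**
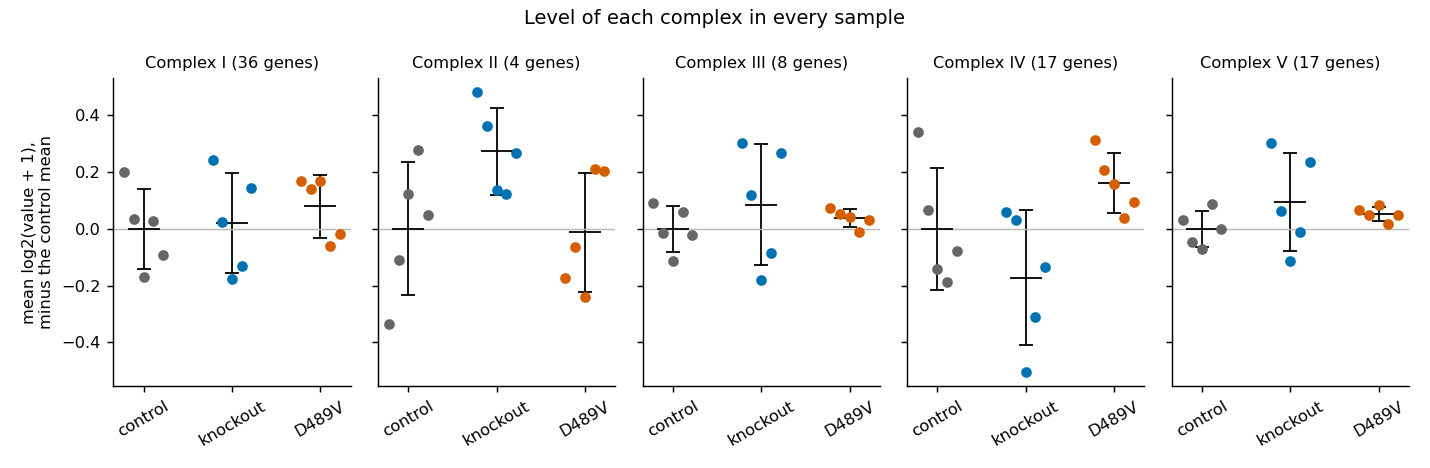
Mean log2(normalized count + 1) over the members of each complex in every sample, minus the control mean, with group mean and SD (n = 5). Complex II lay at 0.121 to 0.48 in knockout and complex IV at 0.039 to 0.312 in D489V, and both ranges overlapped the controls.

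Averaged over its genes, complex I differed from the control mean by 0.02 ± 0.177 (SD, n = 5) in knockout and 0.079 ± 0.11 in D489V, where the controls themselves had an SD of 0.141. Complex II was at 0.273 ± 0.152 in knockout and -0.013 ± 0.21 in D489V. Its control samples 1 to 5 lay at -0.336, -0.111, 0.122, 0.278 and 0.047, so controls 3 and 4 were within or above the low end of the knockout samples. Complex IV was at -0.172 ± 0.238 in knockout and 0.162 ± 0.105 in D489V. Knockout 3 and 4, at -0.505 and -0.311, were its lowest samples and control 1, at 0.342, its highest. Complex III was at 0.084 ± 0.212 and 0.037 ± 0.031, and complex V at 0.095 ± 0.172 and 0.052 ± 0.025. Quantile normalization turned the complex V value in knockout to -0.045. These averages are descriptions, with no test.

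**Figure D2:**
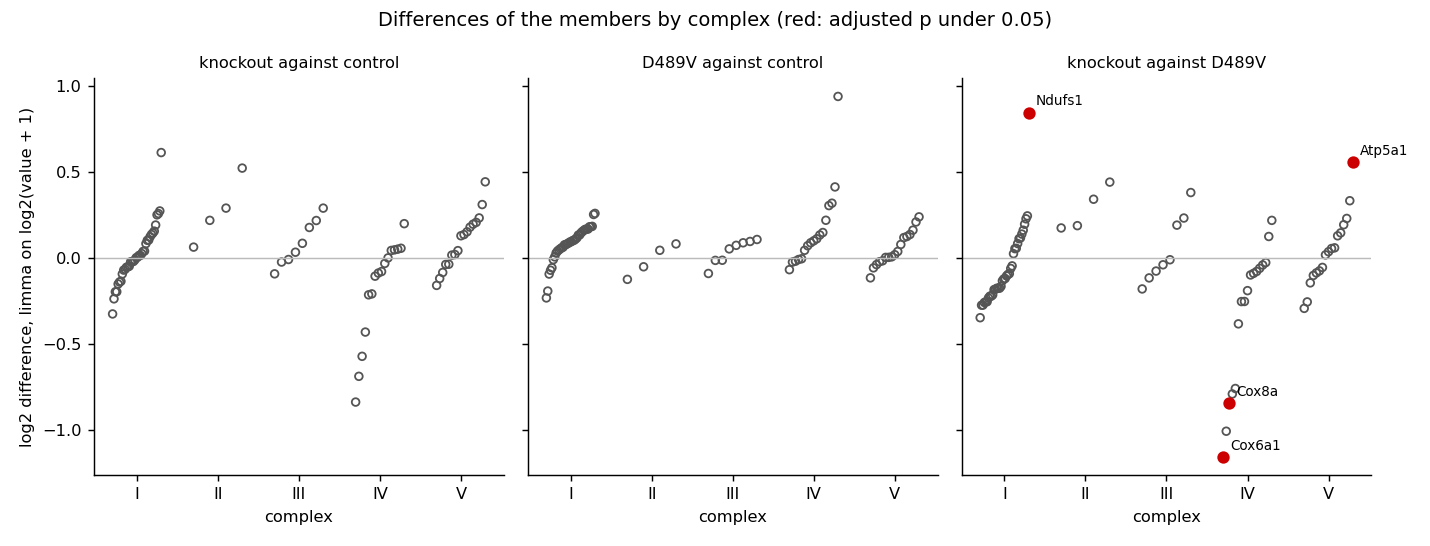
The log2 difference of each member in the 3 comparisons, by complex and in rank order within it. Filled red points mark the 4 members with an adjusted p under 0.05, all of them in knockout against D489V.

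The direct comparison of the mutant groups uses no control. There, Ndufs1 and Atp5a1 were higher in knockout, and Cox6a1 and Cox8a were lower, by a log2 difference of 0.56 to 1.15 in size. These were 4 of 82 members (4.88%), while 20.8% of the 15299 genes tested were called, 10.5% higher and 10.3% lower. In all, 31 members lay above 0 and 51 below, with a median of -0.08, beside 50.1% of all genes above 0. With length and GC trends taken out, 52 lay above 0 and 30 below, with a median of 0.07. Another 14 members made up the 18 (22%) with an unadjusted p under 0.05, 7 higher and 11 lower in all, against 37.7% of all genes. Only Ndufs1 had groups that did not overlap (1.22% of members, 13.9% of all genes). The other 78 members were not called, and 60 of the 82 (73.2%) differed by less than 0.25, as did 46.5% of all genes. Without knockout 3, the sample with Xist, 4 members were called. Without D489V 4 there were 10, and without knockout 1 or without D489V 5 there were 7.

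Ndufs1 (ENSMUSG00000025968, chr1:63143596-63176833, minus strand, protein-coding) encodes the largest core subunit of complex I, which carries iron-sulfur clusters in the arm that receives electrons from NADH. It was at 5886, 8325, 14955, 16853 and 13101 normalized counts in controls 1 to 5, at 19300, 15722, 14229, 15429 and 20208 in knockout, and at 7510, 7505, 7029, 13234 and 13799 in D489V. All knockout samples lay above all D489V samples, while controls 1 and 2 were low like D489V 1 to 3 and the other controls high. The group means were 11824 ± 4589 (SD, n = 5) in controls, 16978 ± 2615 in knockout and 9815 ± 3390 in D489V. The log2 difference between knockout and D489V was 0.84 (SE 0.204, limma adjusted p 0.0165), and it stayed under 0.05 in all 22 alternative fits. Against control it was 0.61 in knockout (SE 0.259, limma adjusted p 0.314) and -0.23 in D489V (SE 0.303, limma adjusted p 0.848). Ndufs1 shares 6.2% of its exon bases with Eef1b2 and Ino80dos on the other strand, and the strand setting of the counting is not given in the sources used here.

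The rest of complex I was not called. Of its 36 genes, 12 lay above 0 and 24 below in knockout against D489V, with a median of -0.12 and a range from -0.35 to 0.84. With length and GC trends taken out this turned to 21 above and 15 below, with a median of 0.05. The lowest was Ndufv3, an accessory subunit of the NADH-binding module, at -0.35 (SE 0.118, limma adjusted p 0.0555). Ndufv1, which binds NADH and its flavin, was at 0.20 (SE 0.088, limma adjusted p 0.127). Ndufs7, whose protein holds the cluster that passes electrons to ubiquinone, had the smallest p of complex I in D489V against control. Its values were 5689, 5602, 4605, 5298 and 5017 in controls and 6618, 6992, 6659, 5455 and 5683 in D489V. D489V 4 and 5 lay within the control range and the other 3 above it, with a log2 difference of 0.26 (SE 0.0975, limma adjusted p 0.422).

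In complex II all 4 genes lay above 0 in knockout against D489V, with a median of 0.26, and none was called. Sdha (chr13:74322254-74350280, minus strand), the flavoprotein that oxidises succinate, was at 11900, 16081, 26133, 25955 and 21492 in controls, at 37342, 30822, 24130, 23031 and 26552 in knockout, and at 16199, 18909, 14012, 29523 and 29178 in D489V. D489V 4 and 5 were among the high samples and controls 1 and 2 among the low ones, so the groups overlapped. Its log2 difference was 0.52 in knockout against control (SE 0.224, limma adjusted p 0.317) and 0.44 in knockout against D489V (SE 0.219, limma adjusted p 0.161). Sdhd (chr9:50596357-50603812, minus strand), a membrane anchor, was at 6970, 6582, 5927, 6098 and 6934 in knockout and at 4116, 5148, 4205, 6485 and 6113 in D489V. Again D489V 4 and 5 reached the knockout range, and the log2 difference was 0.34 (SE 0.131, limma adjusted p 0.0803). Sdhb, the iron-sulfur subunit, was at 0.17 and Sdhc, the other anchor, at 0.19. In D489V against control, Sdhc was at -0.12 (SE 0.0845, limma adjusted p 0.682). The 4 of 4 above 0 in knockout against D489V held under each scaling tried and without each sample in turn.

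In complex III, 3 of 8 genes lay above 0 in knockout against D489V and 5 below, with a median of -0.03. This direction did not hold: 7 lay above 0 (median 0.17) with length and GC trends taken out, 6 (median 0.05) without knockout 3 and 5 (median 0.03) without knockout 4. Uqcrc2 (chr7:120635176-120659524, plus strand), a core protein on the matrix side, was at 17711, 14556, 13762, 14593 and 17616 in knockout and at 10614, 10638, 9765, 14400 and 15429 in D489V. D489V 1 to 3 lay below all knockout samples, and D489V 4 and 5 within their range. The log2 difference was 0.38 (SE 0.142, limma adjusted p 0.073), and it was 0.29 against control (SE 0.137, limma adjusted p 0.34). Uqcrc1, the other core protein, and Uqcrfs1, the Rieske iron-sulfur protein, were at 0.23 and 0.19. Uqcr10, a small subunit, had the smallest p of complex III in D489V against control, at 0.10 (SE 0.103, limma adjusted p 0.814), and at -0.07 with length and GC trends taken out.

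Complex IV held both members that were called lower in knockout. Cox6a1 (ENSMUSG00000041697, chr5:115345642-115348981, minus strand, protein-coding), the general isoform of subunit 6a, was at 1925, 1535, 1596, 647 and 809 in controls, at 776, 1102, 517, 601 and 510 in knockout, and at 1945, 1714, 859, 1658 and 1564 in D489V. Controls 4 and 5 and D489V 3 were as low as the knockout samples, and the other samples lay above them. Means were 1302 ± 548 (SD, n = 5), 701 ± 248 and 1548 ± 410. The log2 difference between knockout and D489V was -1.15 (SE 0.245, limma adjusted p 0.0106) and stayed under 0.05 in all 22 alternative fits. Against control it was -0.84 in knockout (SE 0.313, limma adjusted p 0.306) and 0.32 in D489V (SE 0.311, limma adjusted p 0.789).

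Cox8a (ENSMUSG00000035885, chr19:7215153-7217616, minus strand, protein-coding), the general isoform of subunit 8, was at 1285, 1108, 1426, 642 and 720 in controls, at 826, 934, 633, 742 and 582 in knockout, and at 1516, 1317, 857, 1490 and 1536 in D489V. The low samples were those of Cox6a1: controls 4 and 5, all knockout samples and D489V 3. Means were 1036 ± 344 (SD, n = 5), 743 ± 143 and 1343 ± 285. The log2 difference between knockout and D489V was -0.84 (SE 0.175, limma adjusted p 0.00957), and against control it was -0.43 in knockout (SE 0.224, limma adjusted p 0.364) and 0.41 in D489V (SE 0.239, limma adjusted p 0.632). With length and GC trends taken out, the first became -0.56 (limma adjusted p 0.0739), and the call was lost. Over all 22 alternatives the adjusted p was 0.00149 to 0.0739. The remaining complex IV genes were not called, and 15 of the 17 lay below 0 in knockout against D489V, with a median of -0.19, beside 8 above 0 and a median of -0.03 with those trends taken out. Without knockout 3, 13 lay below 0, with a median of -0.05, and without knockout 4, 12 did, with a median of -0.14.

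**Figure D3:**
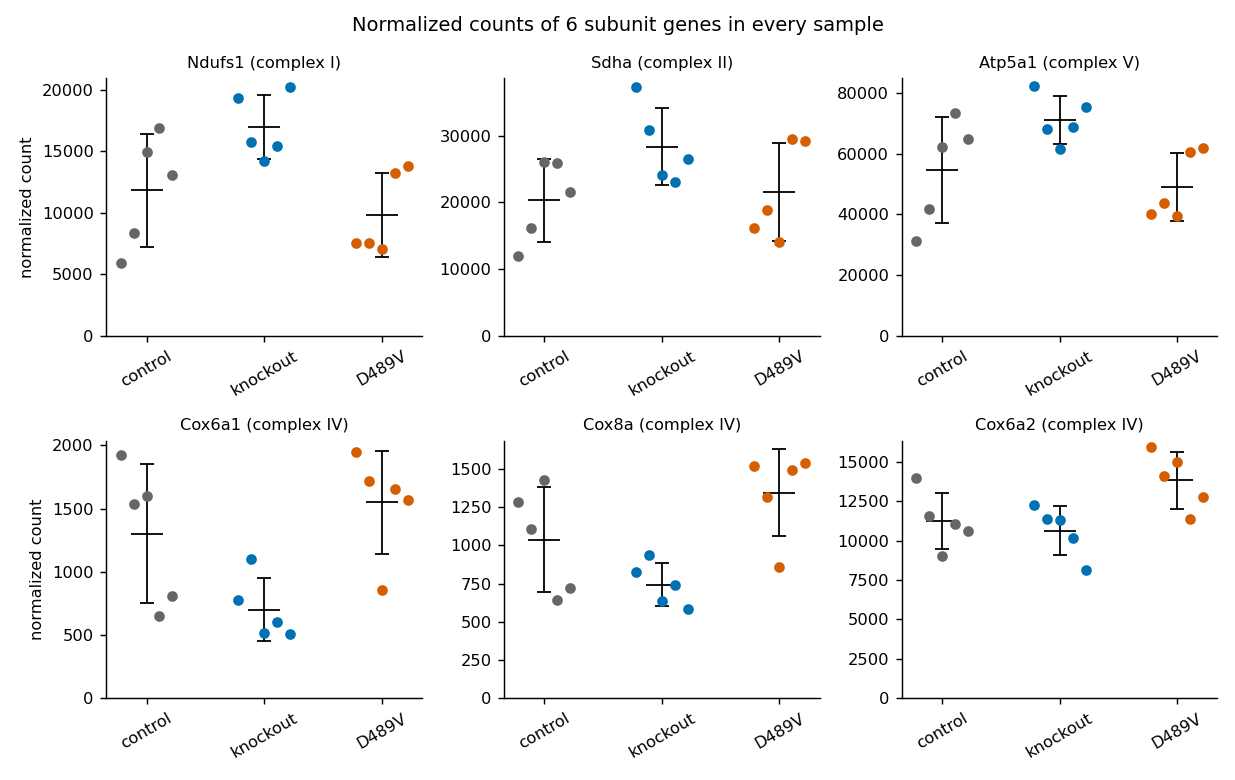
Normalized counts of 6 members in every sample, with group mean and SD (n = 5) on axes that start at 0. Ndufs1 separates knockout (14229 to 20208) from D489V (7029 to 13799), while at least 1 D489V sample reaches the knockout range in each of the other 5 genes.

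The muscle isoforms Cox6a2 and Cox8b also lay lower in knockout than in D489V, and neither was called. Cox6a2 (chr7:128205435-128206387, minus strand) was at 13953, 11549, 9036, 11051 and 10636 in controls, at 12231, 11377, 11281, 10198 and 8125 in knockout, and at 15925, 14082, 15022, 11379 and 12784 in D489V. D489V 1 to 3 were the 3 highest of all samples, and D489V 4 and 5 lay within the control range. Its log2 difference was -0.38 in knockout against D489V (limma adjusted p 0.0514) and 0.30 in D489V against control (SE 0.13, limma adjusted p 0.494). Cox8b was at 3658 ± 1026 (SD, n = 5) in controls, 3122 ± 609 in knockout and 3692 ± 480 in D489V. Its log2 difference in knockout against D489V was -0.25 (SE 0.134, limma adjusted p 0.186).

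Within a sample, the log2 ratio of the general to the muscle form was -3.22 ± 0.662 (SD, n = 5) in controls, -3.97 ± 0.388 in knockout and -3.20 ± 0.529 in D489V for Cox6a1 over Cox6a2. The knockout samples lay between -4.45 and -3.37, and controls 4 and 5 and D489V 3, at -4.09, -3.72 and -4.13, lay among them. For Cox8a over Cox8b the ratio was -1.85 ± 0.631, -2.07 ± 0.257 and -1.48 ± 0.487, and all 3 groups overlapped. Cox7a1, the muscle form of subunit 7a, over the general form Cox7a2 was at 0.58 ± 0.292, 0.32 ± 0.331 and 0.45 ± 0.166. Cox4i1 over Cox4i2, a form known from lung, was at 7.89 ± 0.543, 8.62 ± 0.566 and 7.95 ± 0.328. The Cox4i2 counts behind the last ratio were low, from 32 to 163. Cox6b1 over Cox6b2 was at 7.82 ± 0.308, 8.30 ± 0.643 and 7.59 ± 0.267, again over a minor form with 17 to 59 counts. Ratios of counts between genes also carry their lengths, so only their differences between samples can be read.

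**Figure D4:**
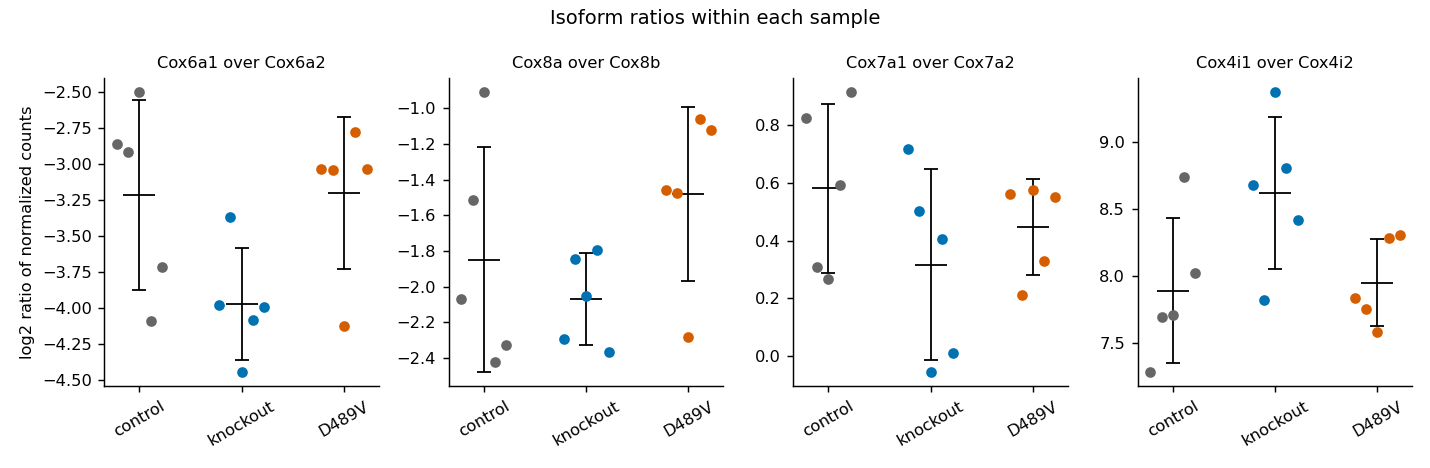
Log2 ratio of the normalized counts of 4 isoform pairs within every sample, with group mean and SD (n = 5). For Cox6a1 over Cox6a2, controls 4 and 5 and D489V 3 lie among the knockout samples.

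In complex V, Atp5a1 (ENSMUSG00000025428, chr18:77773729-77782869, plus strand, protein-coding), the alpha subunit of the catalytic head, was at 31207, 41818, 62229, 73500 and 64791 in controls, at 82330, 68048, 61493, 68814 and 75339 in knockout, and at 40129, 43699, 39407, 60563 and 61874 in D489V. The lowest knockout sample lay just under the highest D489V sample, and controls 1 and 2 were low like D489V 1 to 3. Means were 54709 ± 17534 (SD, n = 5), 71205 ± 7919 and 49134 ± 11160. The log2 difference between knockout and D489V was 0.56 (SE 0.161, limma adjusted p 0.0311), and against control it was 0.44 in knockout (SE 0.225, limma adjusted p 0.359) and -0.12 in D489V (SE 0.242, limma adjusted p 0.911). The call was lost in 10 of 22 alternative fits, with adjusted p from 0.0111 to 0.0938 over all of them, among them those without knockout 1, 4 or 5 and without D489V 1, 2 or 3. The replicate number as a block gave 0.0514.

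Atp5b, which forms the head with Atp5a1, was at 54204, 68870, 93650, 105056 and 93548 in controls, at 113985, 96763, 88521, 96571 and 106545 in knockout, and at 69625, 72695, 67016, 95412 and 98307 in D489V. The same controls and D489V samples were low as for Atp5a1. The log2 difference between the mutant groups was 0.33 (SE 0.152, limma adjusted p 0.131). Atp5g1, Atp5g2 and Atp5g3 encode the same mature subunit c of the rotor ring. They were at 0.02, -0.09 and 0.04 in knockout against D489V. Atp5g2 had the smallest p of complex V in D489V against control, at 0.24 (SE 0.11, limma adjusted p 0.537). In all, 10 of the 17 genes of complex V lay above 0 in knockout against D489V, with a median of 0.04. After quantile normalization 4 did, with a median of -0.11.

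The samples that were low in Ndufs1 were not one genotype. Controls 1 and 2 and D489V 1 to 3 lay at 5886 to 8325, and the other 10 samples at 13101 to 20208. These 5 samples were also the 5 lowest for Atp5a1, Atp5b, Ndufv1, Sdha, Sdhd and Uqcrc2, 7 of the 82 members in all. The same order held for 9.79% of the 15389 genes with a mean of 10 or more, so it was not particular to the members. The 5 samples were the 5 highest for Cox6c2, Ndufa12, Ndufa13, Ndufc1 and Ndufv3, and for 5.38% of those genes. The 8 samples that were lowest for Cox6a1 were also the 8 lowest for Cox8a and for no other member, and for 1.4% of all those genes. The same 8 samples had the 8 lowest sums of white adipocyte markers, 8125 to 32102, and the rest lay at 40449 to 105956. They also had the 8 lowest sums of brown adipocyte markers, a list that holds Cox8b. Those sums were 4111 to 6183, with the rest close above at 6188 to 9220. Whether these sums bear on either gene was not tested. These sets of samples were read from the values, and no comparison was made between them.

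Coefficients of variation were taken within each group for the 77 members with a mean of 1000 or more. Their median was 14.6% in controls, 15.4% in knockout and 9.9% in D489V, beside 14.4%, 10.8% and 12.4% for all 3715 genes at that level. Among controls, Cox6a1 varied by 42.1%, Ndufs1 by 38.8%, Cox8a by 33.2% and Atp5a1 by 32.1%, so the 4 called members were among the most variable in that group. In the same order they varied by 35.4%, 15.4%, 19.2% and 11.1% in knockout and by 26.5%, 34.5%, 21.2% and 22.7% in D489V. Atp5g1 at 3.5%, Ndufa10 at 4.5% and Cox4i1 at 5.4% varied least in controls.

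The 17 core subunits were counted apart from the other 65 members, which are called accessory here whatever their role. They carry catalytic or electron transfer centres, form the head of the ATP synthase, or are core proteins of complex III such as Uqcrc1. No complex IV gene was among them, so Cox6a1 and Cox8a counted as accessory. So did the membrane anchors Sdhc and Sdhd, the subunit c genes Atp5g1, Atp5g2 and Atp5g3, and also Cox6c2, Cox7a2l and Atp5s. In knockout against D489V, 13 of 17 core genes lay above 0 with a median of 0.17, and 18 of 65 accessory genes did with a median of -0.10. Within complex I the counts were 5 of 7 core genes and 7 of 29 accessory genes. In knockout against control, 16 of 17 core genes lay above 0 with a median of 0.22, and 30 of 64 accessory genes with a median of -0.02. Without single samples the core count was 14 to 17, while the accessory count ran from 18 without knockout 1 (median -0.07) to 47 without control 1 (median 0.05), so the accessory direction rested on single samples. The accessory count was 40 without knockout 3. In D489V against control the medians were 0.05 for core and 0.09 for accessory genes. After quantile normalization the core genes above 0 were 9 of 17 in knockout against D489V and 10 of 17 in knockout against control, with medians of 0.01 and 0.04, and the accessory medians were -0.21 and -0.14. Without each sample in turn, 12 to 13 core and 15 to 24 accessory genes lay above 0 in knockout against D489V, with accessory medians of -0.17 to -0.04.

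Core genes were also longer, with a median of 2239 bases of merged exons against 1237 for accessory genes. Over the 82 members, Spearman's rho between the knockout minus D489V difference and exon length was 0.578, and over all genes tested it was 0.157. Of the 41 shorter members 6 lay above 0 (10 without knockout 3 or without knockout 4), with a median of -0.12, and of the 41 longer ones 25 did, with a median of 0.06. Among all genes tested, 35.8% of those at or under the same length lay above 0 and 52.0% of the longer ones. The points share their libraries, and length moves with GC content, for which rho was -0.365 over the members. With both trends taken out over all genes, 26 of 41 shorter and 26 of 41 longer members lay above 0. Then 16 of 17 core genes lay above 0, with a median of 0.29, and 36 of 65 accessory genes, with a median of 0.02. In that fit 7 members were called: Atp5a1, Cox7a2l, Ndufs1, Ndufv1, Sdhb and Sdhd were higher and Cox6a1 was lower.

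**Figure D5:**
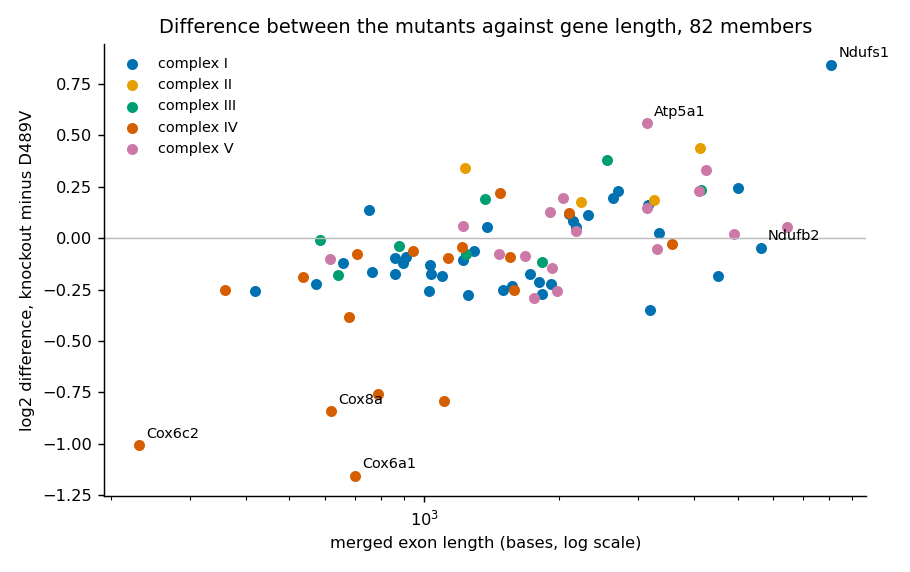
The log2 difference between knockout and D489V of each of the 82 members against its merged exon length (log axis), coloured by complex. Shorter members lie mostly below 0 and longer ones more often above, with Spearman's rho of 0.578.

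Other genes of mitochondrial respiration were read from lists. None was called in either comparison with controls. In knockout against D489V, the list counts stand beside 10.5% of all genes called higher and 10.3% called lower. In knockout against D489V, 13 of 43 assembly factors tested were higher and 1 was lower, with a median of 0.21 beside 0 over all genes. The largest differences were those of Atpaf1, which helps to build the head of the ATP synthase (1529 ± 165 in knockout and 931 ± 263 in D489V, SD, n = 5, log2 0.76, SE 0.169, limma adjusted p 0.013), and Ttc19, a complex III factor (1338 ± 153 and 842 ± 158, log2 0.68, SE 0.131, limma adjusted p 0.00718). Coa5, a complex IV factor, followed at 0.66, and Lyrm7, which acts in the insertion of the Rieske protein, was the lower one at -0.61 (SE 0.132, limma adjusted p 0.0112). Of 17 electron carriers, coenzyme Q genes and subunits outside the name patterns, only Coq5 was called, at 0.36.

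None of the 12 tested subunits encoded by the mitochondrial genome was called, and their median was -0.03. Their summed level overlapped between groups: 877583 to 2088056 over the controls, 1069638 to 1972758 over the knockout samples and 1350944 to 1796591 over the D489V samples. In the tricarboxylic acid cycle 5 of 18 genes were higher in knockout, beside 10.5% of all genes, and none was lower, led by Dlat at 0.72, Dld at 0.66 and Suclg2 at 0.62. Of 16 regulators of mitochondrial genes 6 were higher and none lower, beside the same share of all genes. These included the oestrogen-related receptors Esrrb, at 202 ± 117 in knockout and 77.6 ± 28.9 in D489V (SD, n = 5, log2 1.28, SE 0.38, limma adjusted p 0.0348), and Esrrg at 1.09, and the muscle regulator Perm1 at 0.82. Of 21 carriers, import and cristae genes 6 were higher, again beside 10.5% of all genes, and none was lower, led by Slc25a12 at 0.66, Opa1 at 0.58 and Slc25a11 at 0.53. Sums of the cycle genes were 271521 to 335447 in knockout, with D489V 4 and 5 among them at 285511 and 290026. D489V 1 to 3 lay lower, at 187362 to 215435. Regulator sums overlapped, at 18637 to 24820 in knockout and 14247 to 19235 in D489V. Carrier sums did not, at 236012 to 288971 and 204481 to 233625. For the cycle, regulator and carrier lists, controls 1 and 2 and D489V 1 to 3 had the lowest sums. The mitochondrially encoded subunits did not follow this order. Their sum was highest in control 1, at 2088056, and it was 1858905 in control 2 and 1641123, 1796591 and 1722515 in D489V 1 to 3.

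Markers of other cells differed between the same groups, where 10.3% of all genes were called lower and 10.5% higher. In knockout against D489V all 8 endothelial markers were lower, with sums of 8723 to 13706 in knockout and 16532 to 20051 in D489V. White adipocyte markers were lower for 7 of 8 (13095 to 22304 against 32102 to 105956), nerve markers for 6 of 7 (6313 to 9933 against 12411 to 50137) and erythrocyte markers for 5 of 5 tested (3175 to 8038 against 12462 to 22164). Of 9 mural markers 1 was higher and 3 were lower. In controls the sums were 14749 to 22070 for endothelium, 8125 to 71757 for white adipocytes, 8873 to 14434 for nerve and 5682 to 8420 for erythrocytes. No marker of these lists was listed at 0 in all samples, and their part in the values of the subunits was not tested. Among slow and oxidative fibre markers Casq2 was called, at 0.93, of 12, and their sums spread widely within each group, from 59296 to 358138 in controls, 65936 to 375999 in knockout and 79871 to 311147 in D489V. None of the 12 fast fibre, 8 fibroblast, 7 tested lymphocyte and 6 tested brown adipocyte markers was called. Lymphocyte marker sums were uneven between samples all the same. They were 6283 in control 5 and 2231, 5514 and 1520 in knockout 3, 4 and 5, against at most 322 in every other sample. Whether this bears on the values of the subunits was not tested.

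Processed copies elsewhere in the genome, of at least 200 bases at 95% identity or more, matched 18 of the 82 members, with up to 8 copies for Atp5l. The 4 called members had none. The summed counts of the copies exceeded 5% of the member's count in 1 case, Cox7a2l, at 14.2%. Exon bases were shared with a gene on the other strand in 25 members and with one on the same strand in 5.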

How the data were processed

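RNA of 15 muscle samples was read from 2 deposited tables, each with the 5 controls and 1 mutant group. Their values are a score: gene counts already normalized by the authors and deposited as whole numbers, as the tables' names say. The submitters' processing notes name Trim Galore 0.6.0, cutadapt, FastQC, STAR 2.7.0e, DESeq2 1.26.0 and GRCm38, without roles. The control columns were identical in both tables, and median ratios of 1.0069 to 1.0097 put all samples on one scale. Precision is limited by 5 samples a group. Depth in reads was not recovered, so no count model was used.

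Each pair of groups was compared by limma 3.58.1 (R 4.3.3) on log2(value + 1), with a variance trend in eBayes and two-sided p-values. That scale understates changes of low genes. A gene was tested if 5 or more of the 10 samples held at least 10, and called if its p, adjusted over all tested genes by Benjamini-Hochberg, was under 0.05. The procedure was tested on simulated counts drawn independently for each sample around the control means. They held no sets of samples that cross the groups, so that test cannot show how the procedure handles such sets. The text names Pdgfrb, up to 4 called members per complex and comparison or else the one with the smallest p, isoform pairs, and up to 3 called genes per list. Members and lists were chosen with earlier results of these data known. Ndufv1, Ndufv3, Uqcrc1, Uqcrfs1, Sdhb, Atp5b and the members of the level and variation orders, as well as the core, length, sample order, processed copy and promoter descriptions, were chosen after the values were seen. Exon lengths, GC content and copies came from the reference on GRCm38, with BLAST 2.17.0 for copies. Replicate numbers were not used to pair samples in the main fits. Alternatives changed the pseudocount, filter, scaling, variance model and sample weights, used replicate numbers as a block, and omitted each sample in turn. Other steps ran in Python 3.11.15 with pandas 2.3.3, numpy 2.4.6 and, for plots, matplotlib 3.10.9.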

Additional observations from a re-analysis of the deposited data

Results flagged for a closer look

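In 8 of 114 groups of 5 samples, 1 sample stood apart, with a gap to its nearest neighbour of more than 0.71 of the group's range. Chance gives about 5.7 such groups. In sample D489V 3, log2 Cox6a1 was 9.75 beside 10.61 to 10.93 in the other D489V samples, log2 Cox8a was 9.74 beside 10.36 to 10.59, and the log2 ratio of Cox6a1 over Cox6a2 was -4.13 beside -3.04 to -2.78. The same sample had the highest sum of nerve markers, 50137. Among the D489V samples it also had the highest slow and oxidative fibre sum, 311147 beside 79871 to 143744. Its white adipocyte sum was the lowest of that group, 32102 beside 70531 to 105956. The part of these markers in the values of the 2 genes was not tested. Without D489V 3, the knockout minus D489V difference was -1.35 for Cox6a1 and larger in size than with it for Cox8a, both called by limma.

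In control 5, log2 Cox7a2l was 11.65 beside 11.15 to 11.18, and the log2 ratio of Cox6b1 over Cox6b2 was 7.29 beside 7.83 to 8.04. Control 4 had a log2 Sdhc of 13.56 beside 13.24 to 13.32. The log2 ratio of Cox7a2 over Cox7a2l was 0.30 in knockout 5, with the other knockout samples at -0.15 to -0.02, and 0.21 in D489V 4, with the other D489V samples at 0.27 to 0.29.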

How the results depend on the processing

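No member was called against control in any of the 22 alternatives of either comparison. In knockout against D489V the 4 member calls became 7 after either upper-quartile rescaling or quantile normalization, 8 with the same total outside mitochondrially encoded genes, 12 with array weights and 7 with length and GC trends removed, an alternative chosen after seeing the data. Leaving out single samples gave 3 to 10. Over all genes, the 1 call in knockout against control became 3 after upper-quartile rescaling, 3 after quantile normalization, 2 with the same total and 16 with all 3 groups in 1 fit, and 1 to 7 without single samples (7 without knockout 2). The 9 calls in D489V against control became 24 with upper-quartile rescaling, 19 with a pseudocount of 5, 16 after quantile normalization, 4 when a mean of 50 was required, 86 with array weights, 21 with robust eBayes and 1 with all 3 groups in 1 fit, and 2 to 26 without single samples (26 without D489V 3). The 3181 calls in knockout against D489V ranged from 1398 (without D489V 1) to 3686 (without D489V 4) when single samples were left out, with 1526 without D489V 2 and 1989 without D489V 3, and were 4458 with array weights. With length and GC trends removed, 58.8% of its calls were higher in place of 50.3%, and Uqcr10 in D489V against control turned to -0.07. The complex V level in knockout against control turned to -0.045 with quantile normalization. With the replicate block, Pdgfrb in knockout against D489V (0.51, limma adjusted p 0.0258) had an adjusted p of 0.0643 at the same difference of 0.51. Leaving out single samples gave 0.43 to 0.62, not called without knockout 1, D489V 1 or D489V 2. The replicate block gave 1, 7 and 2208 gene calls and 0, 0 and 5 member calls in the 3 comparisons. Same-numbered samples deviated together with correlations of -0.23 to 0.252, -0.367 to 0.346 and -0.098 to 0.104, and 1, 1 and 0 of 5 correlated best with their own number. This check looked only at samples of the same number, so it cannot show whether the numbers follow a shared batch, day or litter. The causes of the changes under the alternatives were not tested.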
